A study of Mus musculus with 6 samples.

Results

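The genes described here are listed under symbols that name no function. They were chosen by their symbols alone, as RIKEN clones (symbols ending in Rik), predicted gene models (Gm followed by digits) and clones named like GenBank records (2 letters and 6 digits, or a single letter and 5 digits), and a gene entered if all 6 libraries listed it. Of the 2689 genes listed in all 6 libraries, 125 met the rule: 89 RIKEN clones with 129 alternative splicing events, 16 Gm models with 39 events and 20 GenBank-style clones with 30 events. All 125 had the same number of events in every library, so that 198 of the 4658 events compared belonged to them; the other 2560 genes compared held 4460 events.

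The libraries came from primary mouse medullary thymic epithelial cells (mTECs), sorted as CD45- EpCAM+ Ly51- I-A/E+, placed on human dermal fibroblasts embedded in fibrin, and infected with a pLKO.3G lentivirus that also carries GFP. The Ctr group (2 libraries) expressed an shRNA against LacZ. The Raver2 knockdown group (2 libraries) and the Setd2 knockdown group (2 libraries) each had a different hairpin in each library, sh1 in library 1 and sh2 in library 2. After 5 days, viable infected cells (DAPI- I-A/E+ GFP+) were sorted from all 3 groups, and the value deposited for each event was an inclusion fraction from 0 to 1. The labels name neither strain nor age and do not say whether libraries came from separate animals or cultures, so p-values cover only how these libraries vary, which may be technical in Ctr and in the knockdown groups includes the change of hairpin.

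Symbols of these kinds are provisional. RIKEN names come from a large collection of mouse full-length cDNA clones, Gm names from computed gene models and GenBank-style names from database entries, and many of the genes behind them are long noncoding RNAs, which are spliced like messenger RNAs but not translated. Raver2 is an RNA-binding partner of the polypyrimidine tract binding protein (PTB), a splicing repressor that recognises short pyrimidine runs such as UCUU. Setd2 is the methyltransferase that places the trimethyl mark on lysine 36 of histone H3 along transcribed gene bodies, a mark that has been linked to the choice of alternative exons. mTECs transcribe a wide range of genes that are otherwise restricted to single tissues, among them many of little-known function.

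Each event is known only by its gene and by its place in the gene's list; it carries no coordinates, and inclusion fractions carry no expression level or read count. Libraries listed 4777 to 4949 events each. Fractions that round to 1 at 3 digits are written as 1 unless more digits are given. Raver2 and Setd2 were listed in no library, so neither knockdown could be checked. Of the marker genes, 2 of 10 of medullary thymic epithelium (Aire and Cd74), 1 of 10 of fibroblasts (Postn) and 4 of 10 of leukocytes (Ptprc, Cd8a, Lck and Cd247) were listed in all libraries. A listed event says only that the gene had one, not how many cells of a type were present, and the part of other cell types in the results was not tested.

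Of the 125 genes, 116 were found in the GENCODE M21 annotation of mm10, 23 of them only under the symbol they now carry in RefSeq. By annotation (GENCODE, or RefSeq for 2 genes placed only there) 62 (49.6%) were protein coding, 54 (43.2%) long noncoding RNAs and 2 pseudogenes, and 7 had no match. Among the other 2560 genes, 2540 (99.2%) were protein coding and 13 were long noncoding RNAs, so most of the long noncoding RNA genes compared belonged to the unnamed and predicted set. A present name was found for 29 of the 125: 1700020I14Rik is Oip5os1, 1810032O08Rik is Snhg16, a host gene of small nucleolar RNAs, 2700094K13Rik is the selenoprotein gene Selenoh, and AI854517 is Mir9-3hg, the host transcript of a miR-9 gene. Of the 116 genes placed on the genome, 33 (28.4%) overlapped a protein-coding gene on the opposite strand, against 550 of 2551 other genes (21.6%), and 11 (9.48%) overlapped one on the same strand, against 136 (5.33%). Whether reads were counted by strand is not given in the sources used here, and for these genes the reads of the overlapping pair may not have been told apart. The median number of annotated transcripts was 4 per gene, against 7 for the other genes.

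An internal exon that some annotated transcripts of a gene hold and others skip was present in 87 of the 116 genes (75%), against 2109 of 2551 other genes (82.7%), and 45 of the 87 had exactly 1 such exon. The sequences below are such exons of 4 of the 6 genes with a significant event, shown because they are the annotated candidates for what those events include or skip. Those of the other 2 genes, C87499 (311 bases) and Gm3286 (591 bases), were left out for their length. Whether an event concerns the exon printed is not known. Sequences are from GENCODE M21 transcripts (mm10), 5′ to 3′ on the gene's strand, with capitals marking TCTT, the DNA form of the PTB-type motif UCUU.
A730056A06Rik, chr7:73332428-73332505, minus strand: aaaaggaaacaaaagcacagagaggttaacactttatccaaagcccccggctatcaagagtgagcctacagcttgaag
A730082K24Rik, chr7:114957508-114957638, plus strand: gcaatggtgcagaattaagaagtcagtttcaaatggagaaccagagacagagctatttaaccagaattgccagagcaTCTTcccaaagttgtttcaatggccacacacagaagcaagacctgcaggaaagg
A730082K24Rik, chr7:114974990-114975156, plus strand: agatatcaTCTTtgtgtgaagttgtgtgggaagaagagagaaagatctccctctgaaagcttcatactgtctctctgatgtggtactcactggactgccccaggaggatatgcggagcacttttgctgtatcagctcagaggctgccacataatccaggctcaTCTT
4931409K22Rik, chr5:24553536-24553655, minus strand: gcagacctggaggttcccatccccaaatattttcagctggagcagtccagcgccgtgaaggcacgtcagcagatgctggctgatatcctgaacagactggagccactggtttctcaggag
2010315B03Rik, chr9:124304656-124304718, minus strand: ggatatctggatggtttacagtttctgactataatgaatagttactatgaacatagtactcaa
2010315B03Rik, chr9:124311676-124311750, minus strand: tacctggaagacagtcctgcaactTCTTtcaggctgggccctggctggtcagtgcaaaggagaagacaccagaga

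The search for TCTT found 1 and 2 matches in the 131-base and 167-base exons of A730082K24Rik, 1 in the 75-base exon of 2010315B03Rik, and none in the 78-base exon of A730056A06Rik, the 120-base exon of 4931409K22Rik or the 63-base exon of 2010315B03Rik. On the other strand (AAGA) the counts in the same order were 2, 3, 2, 1, 0 and 0. Among skippable exons of all listed genes within 10 bases of the same length, the share with at least 1 TCTT was 45.2%, 52.5%, 27.0%, 27.9%, 40.1% and 25.0%. The longer exons of C87499 and Gm3286, not printed, held 1 and 5 TCTT matches, and 3 and 5 on the other strand. At their lengths, 68.3% (of 41 exons) and 83.3% (of 6 exons) held at least 1 TCTT. The motif is common at these lengths, and a match is a description of the letters, not a binding site. The exons of 4931409K22Rik and 2010315B03Rik lie within annotated coding sequence and have lengths that are multiples of 3, whereas both exons of A730082K24Rik belong to a noncoding RNA.

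Raver2 knockdown changed 7 events of 5 unnamed or predicted genes against Ctr, 3 higher and 4 lower (limma, Benjamini-Hochberg adjusted p under 0.05 over all 4658 events; over all events, 1.01% were higher and 1.42% lower). That is 3.54% of the 198 events, beside 2.43% of all events tested (113 of 4658), and 20 of the 198 repeat the values of an earlier event of their gene. Without the repeats the count was 5 of 178 (2.81%), close to the share over all events. Setd2 knockdown changed 7 events of 4 genes against Ctr, 2 higher and 5 lower, again 3.54% beside 2.23% over all events (0.88% higher and 1.35% lower), and 4 of 178 (2.25%) without repeats. Between the knockdowns, 4 events of 3 genes differed, 2 higher and 2 lower in Raver2 knockdown, 2.02% beside 0.73% over all events (0.408% higher and 0.322% lower), and 3 of 178 (1.69%) without repeats. The balance of higher to lower events was not stable. With repeats left out it was 3 to 2 for Raver2 knockdown and 1 to 3 for Setd2 knockdown against Ctr. For Setd2 knockdown it turned to 4 higher and 2 lower without Setd2 library 1, 6 and 3 without Setd2 library 2, and 2 and 1 without either Raver2 library; for Raver2 knockdown it was 4 and 2 without Raver2 library 1 and 2 and 14 without Ctr library 1. The 2 comparisons with Ctr share the Ctr libraries, so their results are not independent.

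The significant events lie in 2 long noncoding RNA genes and 4 protein-coding genes. A730056A06Rik (chr7:73314003-73375774, minus strand) is annotated as an antisense RNA that overlaps Rgma, the gene of a repulsive guidance molecule, on the other strand. Its single event was included at 0.99989 in Ctr library 1 and 0.99999 in Ctr library 2. The fractions were 0.000785 and 0.000933 with Raver2 hairpins, and 0.00198 and 0.00364 under Setd2 knockdown. Both Ctr libraries were thus at full inclusion and all 4 knockdown libraries near 0. Inclusion fell by 0.999 ± 0.0391 (difference ± SE, 2 against 2 libraries) with Raver2 knockdown (limma, adjusted p = 0.0052) and fell by 0.997 ± 0.0391 with Setd2 knockdown (adjusted p = 0.00583). The 2 knockdowns differed by -0.00195 ± 0.0391 (Raver2 minus Setd2, adjusted p = 1.0). The gene has 2 annotated transcripts, and the 78-base exon printed above is the only one that 1 holds and the other skips.

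A730082K24Rik (chr7:114948650-114983960, plus strand), a long intergenic noncoding RNA, had 1 event. It was listed at 0 in both Ctr libraries and both Setd2 knockdown libraries, and at 0.5039 in each of the Raver2 knockdown libraries. Inclusion rose by 0.504 ± 0.0101 with Raver2 knockdown (adjusted p = 0.00186) and was higher than under Setd2 knockdown by as much (adjusted p = 0.00294). The change was seen with both Raver2 hairpins, whose fractions differed by less than 0.001. Neither the fractions at exactly 0 nor those at 0.5039 have a read count beside them here. It cannot be told whether these values, or the close match of the 2 Raver2 libraries, rest on many reads or few.

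4931409K22Rik (chr5:24543432-24556809, minus strand) now carries the symbol Iqca1l, for a protein of the family with an IQ motif and an ATPase domain. Its 2 listed events had identical values and count as 1 observation. The fractions were 0.000199 and 0.0000748 in Ctr, 0.000221 and 0.0000276 with Raver2 hairpins, and 0.984 and 0.99998 under Setd2 knockdown. The 2 Setd2 libraries stood at full inclusion and the other 4 near 0. Inclusion rose by 0.992 ± 0.0389 with Setd2 knockdown against Ctr (adjusted p = 0.00583) and was 0.992 lower under Raver2 than under Setd2 knockdown (difference -0.992 ± 0.0389, adjusted p = 0.00932). Against Ctr, Raver2 knockdown gave a difference of -0.0000124 ± 0.0389 (adjusted p = 1.0).

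C87499 (chr4:88627320-88634411, minus strand), now Pramel32, belongs to the PRAME-like family, whose members are similar copies, so reads assigned to it may stem partly from relatives. Its event was included at 0.523 and 0.474 in Ctr. Both Raver2 knockdown libraries stood at 0.9994 and 0.9998, and both Setd2 knockdown libraries at 0.0000402 and 0.0000522. The 3 groups did not overlap, with Ctr between the knockdowns. Inclusion rose by 0.501 ± 0.0456 with Raver2 knockdown (adjusted p = 0.0301), fell by 0.498 ± 0.0456 with Setd2 knockdown (adjusted p = 0.034) and differed by 0.9995 between them (adjusted p = 0.0132). It was the only one of the 6 genes with a significant event that passed in opposite directions against Ctr.

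Gm3286 (chr5:95510758-95522953, plus strand) had 15 events, the most of any gene compared, but only 5 distinct sets of values, each listed 3 times; its annotation holds 3 transcripts. The significant set (events 2, 7 and 12) had fractions of 0.152 and 0.126 in Ctr, 0.0269 and 0.0298 with Raver2 hairpins, and 0.00000152 and 0.0009 under Setd2 knockdown. All 4 knockdown libraries lay below both Ctr libraries. Inclusion fell by 0.111 ± 0.00965 with Raver2 knockdown (adjusted p = 0.0272) and fell by 0.138 ± 0.00965 with Setd2 knockdown (adjusted p = 0.0201), and the knockdowns differed by 0.0279 ± 0.00965 (adjusted p = 0.8). Event 1 of the gene had group means of 0.221, 0.0819 and 0.0488 in Ctr, Raver2 and Setd2 knockdown, and did not pass (adjusted p = 0.228 and 0.15). Event 4 was at 0.000452 in one Ctr library and at 0.9994 in the other, the widest gap within the gene.

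2010315B03Rik (chr9:124291804-124312696, minus strand), a protein-coding gene without a functional name, had 2 events. Event 1 was at 0.0000348 and 0.0000296 in Ctr, at 0.126 and 0.133 with Raver2 hairpins, and at 0.044 and 0.0822 under Setd2 knockdown. The groups did not overlap, and the 2 Raver2 libraries were the highest. The rise of 0.129 ± 0.0144 with Raver2 knockdown passed narrowly (adjusted p = 0.0485), and the difference of 0.0631 ± 0.0144 for Setd2 knockdown did not pass (adjusted p = 0.223). The knockdowns differed by 0.0663 ± 0.0144 (adjusted p = 0.492). Event 2 of the gene ranged from 0.0803 to 0.405 over the 6 libraries.

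**Figure D1:**
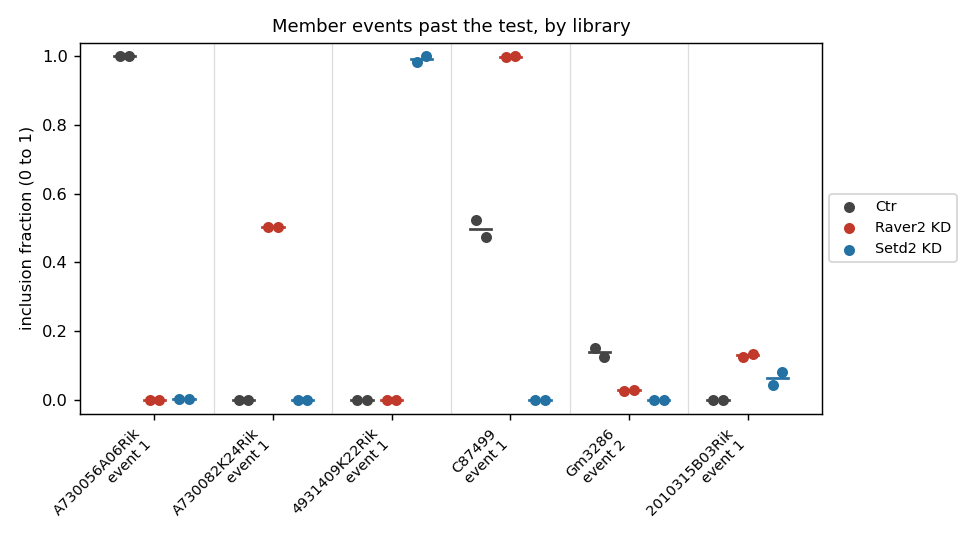
Inclusion fraction (vertical axis, 0 to 1) of the 6 genes with a significant event, with the event number under each symbol; each point is a library, each short bar a group mean, and repeats of an event are shown once. A730056A06Rik is at 0.99989 and 0.99999 in Ctr and below 0.01 in all 4 knockdown libraries, and C87499 lies at opposite ends of the scale in the 2 knockdowns.

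How firmly these calls stand differs by gene. A730056A06Rik and A730082K24Rik passed in Raver2 knockdown against Ctr under all 11 alternative settings tried, whereas Gm3286 event 2 passed in 5 of 10 in each comparison with Ctr, 2010315B03Rik event 1 in 5 of 10, and C87499 in 7 of 11 (Raver2) and 6 of 11 (Setd2). Leaving out any 1 of the 4 knockdown libraries ended both calls of C87499 (adjusted p = 0.0663 to 0.132) and of Gm3286 (0.0853 to 0.129), and leaving out any 1 of the 4 libraries compared ended that of 2010315B03Rik (0.143 to 0.194); over all settings these values ranged from 0.00235 to 0.132, 0.000725 to 0.129 and 0.0225 to 0.194. A fit to only the 4 libraries of Setd2 knockdown and Ctr called no event of any gene with limma, although 27 of the 198 events had an unadjusted p under 0.05 (smallest adjusted p for these genes 0.0593). With unadjusted p under 0.05, 26 of the 198 events (13.1%, beside 12.0% of all events) differed in Raver2 knockdown against Ctr, 23 (11.6%, beside 11.6%) in Setd2 knockdown against Ctr, and 13 (6.57%, beside 6.12%) between the knockdowns. The libraries of the 2 groups did not overlap for 88 events (44.4%, beside 44.0%), 74 (37.4%, beside 42.5%) and 70 (35.4%, beside 33.8%) in the same order. These shares were close to those over all events, apart from that of non-overlap with Setd2 knockdown, which was lower.

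The sizes of the differences were larger than over all events. The median absolute difference was 0.083 with Raver2 knockdown, beside 0.0423 over all events, 0.0879 beside 0.0412 with Setd2 knockdown, and 0.0508 beside 0.0261 between the knockdowns. Among the 94 members with 1 event it was 0.0528, 0.0688 and 0.0283 in the same order. Libraries of the same group also differed by more than 0.1 more often than in other genes (in Ctr 35.9% of events against 27.3%, in Raver2 knockdown 32.3% against 22.5%, in Setd2 knockdown 35.4% against 25.1%). The part of that spread in these medians was not tested. The median signed differences lay near 0, at -0.0027 with Raver2 knockdown and at -0.0000748 with Setd2 knockdown. By symbol, 3 of 129 events of RIKEN clones, 3 of 39 of Gm models (all from Gm3286) and 1 of 30 of GenBank-style clones passed in each of the 2 comparisons with Ctr. By annotation, 5 of 110 events of coding genes (4.55%) and 2 of 73 of long noncoding RNAs (2.74%) passed with Raver2 knockdown, and 6 (5.45%) and 1 (1.37%) with Setd2 knockdown. Over all events, 2.43% passed with Raver2 knockdown and 2.23% with Setd2 knockdown. Repeated events are counted each time here. The coding events that passed lay in 3 genes in each comparison, and the noncoding ones in 2 genes and 1. None of the 51 events that had no library below 0.01 or above 0.99 passed in any comparison. Few such events of any gene passed when fitted alone (counts at the end of the report), so this is not particular to these genes. An unadjusted limma p under 0.05 was found for 9, 7 and 2 of the 51 (17.6%, 13.7% and 3.92%, beside 12.0%, 11.6% and 6.12% of all events).

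Among long noncoding RNAs that did not pass, Snhg16 (1810032O08Rik, event 2) was at 0.125 and 0.131 in Ctr, 0.247 and 0.286 with Raver2 hairpins, and 0.184 and 0.202 under Setd2 knockdown. The groups did not overlap, but the difference of 0.138 ± 0.0213 with Raver2 knockdown missed the threshold (adjusted p = 0.109), as did that of 0.0648 ± 0.0213 with Setd2 knockdown (adjusted p = 0.398). E230029C05Rik, which overlaps the Polycomb gene Eed on the other strand, had 2 complementary events whose fractions sum to 1. Event 1 was at 0.9994 and 0.99996 in Ctr, 0.768 and 0.659 with Raver2 hairpins, and 0.803 and 0.690 under Setd2 knockdown. All 4 knockdown libraries lay below Ctr, with differences of -0.286 ± 0.0583 and -0.253 ± 0.0583 (adjusted p = 0.194 and 0.228). On the logit scale these passed, at adjusted p = 0.023 and 0.0276, within ranges of 0.023 to 0.368 and 0.0276 to 0.405 over all settings tried.

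9230112J17Rik, a long intergenic noncoding RNA, was at 1 and 0.522 in Ctr and at 0.00161 to 0.00331 in the 4 knockdown libraries. The differences of -0.758 ± 0.177 and -0.759 ± 0.177 did not pass (adjusted p = 0.242 and 0.23), and the Ctr libraries lay 0.478 apart. Oip5os1 (1700020I14Rik), the long noncoding RNA known as Cyrano, was one of the steadiest events. Its fractions were 0.842 and 0.832 in Ctr, 0.788 and 0.746 with Raver2 hairpins, and 0.791 and 0.770 under Setd2 knockdown. Both Ctr libraries were the highest, but the differences of -0.0698 ± 0.0199 and -0.0565 ± 0.0199 did not pass (adjusted p = 0.328 and 0.436). AV039307, on the strand opposite the ubiquitin ligase gene Ubr1, was at 1 in both Ctr libraries, at 0.473 and 0.662 with Raver2 hairpins, and at 0.806 and 1 under Setd2 knockdown (adjusted p = 0.238 and 0.781). Gm16973 had 2 complementary events; event 1 had means of 0.801 in Ctr, 0.674 with Raver2 hairpins and 0.894 under Setd2 knockdown (adjusted p = 0.712 and 0.745).

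Among protein-coding genes that did not pass, 1600012H06Rik, opposite the chromatin factor gene Phf10, came nearest. Its event 4 was at 0.220 and 0.175 in Ctr, 0.476 and 0.514 with Raver2 hairpins, and 0.540 and 0.525 under Setd2 knockdown. The groups of knockdown libraries lay well above Ctr and close to each other, with differences of 0.298 ± 0.0509 and 0.335 ± 0.0509 (adjusted p = 0.14 and 0.105). Both passed when the variance was not allowed to depend on the mean (adjusted p = 0.0286 and 0.0283, within ranges of 0.0286 to 0.307 and 0.0283 to 0.223). 3830406C13Rik event 1 was at 0.173 and 0.108 in Ctr, against 0.515 and 0.375 with Raver2 hairpins and 0.531 and 0.335 under Setd2 knockdown (adjusted p = 0.39 and 0.421). 2700097O09Rik was at 0.0947 and 0.196 in Ctr, 0.342 and 0.311 with Raver2 hairpins, and 0.217 and 0.276 under Setd2 knockdown (adjusted p = 0.301 and 0.584). In these 3 genes both knockdowns lay above both Ctr libraries without passing.

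Some events differed most between the knockdowns. 0610010K14Rik event 3 had means of 0.127 in Ctr, 0.0919 with Raver2 hairpins and 0.215 under Setd2 knockdown, a difference of -0.124 ± 0.029 between the knockdowns (adjusted p = 0.534). 1190007I07Rik event 2 had means of 0.834 in Ctr, 1 with Raver2 and 0.711 with Setd2 hairpins (adjusted p = 0.964 between the knockdowns). Smim10l1 (2700089E24Rik) event 1 was at 0.0000229 and 0.0564 with Raver2 hairpins and at 1 and 0.930 under Setd2 knockdown, but at 0.999 and 0.00619 in Ctr (adjusted p = 0.896 between the knockdowns). Others differed most between Setd2 knockdown and Ctr. 9430015G10Rik had means of 0.358 in Ctr, 0.293 with Raver2 and 0.179 with Setd2 hairpins (adjusted p = 0.474 for Setd2 against Ctr). 6430548M08Rik was below 0.01 in both Ctr libraries, at 0.0318 and 0.0000056 with Raver2 hairpins, and at 0.0411 and 0.0303 with Setd2 hairpins (adjusted p = 0.427 for Setd2 against Ctr). None of these passed.

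**Figure D2:**
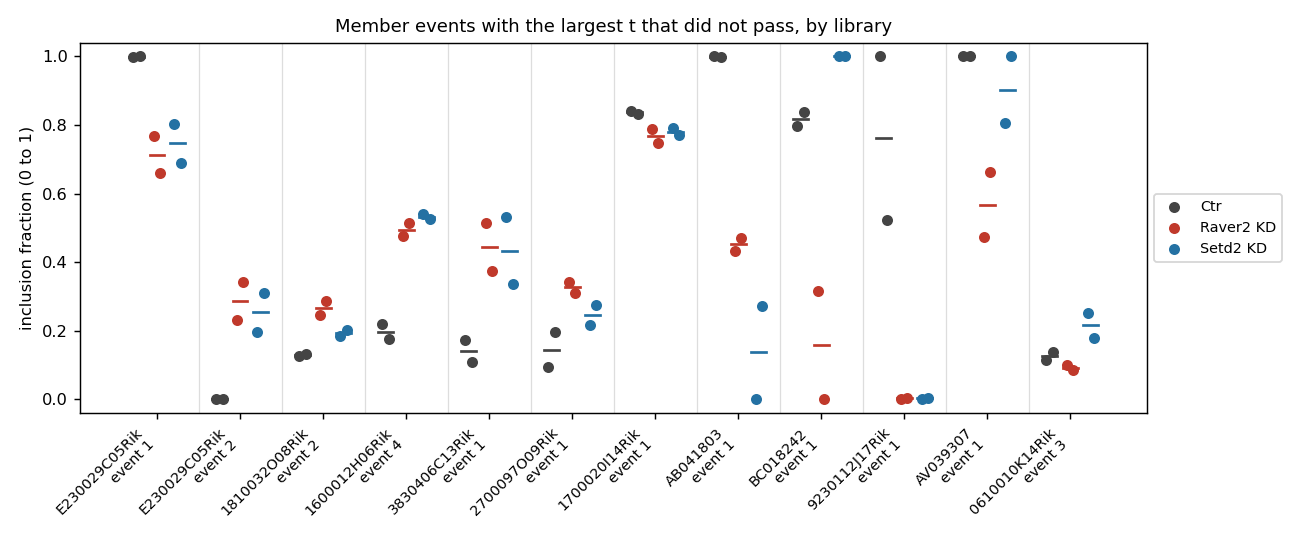
Inclusion fraction (vertical axis, 0 to 1) of 12 events of unnamed and predicted genes that did not pass in any comparison, chosen by their moderated t; points are libraries and short bars are group means. In E230029C05Rik event 1 the 4 knockdown libraries lie between 0.659 and 0.803, below both Ctr libraries, and in 9230112J17Rik the 2 Ctr libraries lie at 1 and 0.522.

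Of the 20 GenBank-style clones, 1 had a significant event (C87499, above). AB041803, which had no match in the annotation, came nearest to passing. It was at 1 and 0.999 in Ctr, 0.433 and 0.471 with Raver2 hairpins, and 0.0000395 and 0.273 under Setd2 knockdown. The groups did not overlap, and the differences were -0.547 ± 0.108 (adjusted p = 0.184) and -0.863 ± 0.108 (adjusted p = 0.0682). BC018242 was at 0.796 and 0.837 in Ctr, 0.317 and 0.00212 with Raver2 hairpins, and 0.9998 and 0.9999 under Setd2 knockdown. Its 2 Raver2 hairpins differed by 0.315, and neither the comparison with Ctr (adjusted p = 0.153) nor that between the knockdowns (difference -0.84 ± 0.118, adjusted p = 0.202) passed.

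Other clones varied between libraries more than between groups. BC107364 was above 0.99 in library 2 of Ctr and of Raver2 knockdown and below 0.01 in the other 4 libraries. BC024978 was at 0.00394 and 1 in Ctr, at 1 and 0.000182 with Raver2 hairpins, and at 0.965 and 1 under Setd2 knockdown. AI854517 (Mir9-3hg) event 1 was above 0.99 in 1 Raver2 library and below 0.01 in the other 5, and its event 2 was below 0.01 in all 6. AU019823 (Nkapd1) ranged from 0.147 to 1, and BC030307 from 0.00000181 to 0.470. BC051142, a gene within the major histocompatibility region of chromosome 17, listed 4 events with the same values, from 0.322 in Setd2 library 2 to 1.

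The remaining clones ranged less widely over the 6 libraries, but some still varied within a group. The 2 libraries lay 0.334 apart in Ctr for AB124611, 0.279 apart in Ctr for AU019990 and 0.268 apart in Raver2 knockdown for C87436 event 2. BC017643 event 1 was between 0.971 and 1 and its events 2, 3 and 4 had Ctr means of 0.707, 0.521 and 0.684, none differing by more than 0.0905 between groups. BC003331 lay between 0.909 and 0.975, AB124611 between 0.666 and 1, AU019990 between 0.721 and 1, and BC021785 at 1 in all 6. C87436 event 1 had means of 0.486, 0.432 and 0.388 in Ctr, Raver2 and Setd2 knockdown, and event 2 of 0.892, 0.866 and 0.801. AI837181 was at most 0.167, R74862, opposite the tetraspanin gene Cd81, at most 0.121, and BC005764 at most 0.0982. BC052040 had 3 events, of which 1 and 3 were identical, at most 0.0778, and 2 was their complement. None of these clones passed in any comparison, and the smallest adjusted p among them, 0.575, belonged to BC017643 event 1 with Raver2 knockdown.

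Some genes held 4 or more events, and not all events of such a gene moved together. 2210408F21Rik, a long noncoding RNA with 6 events, was at 1 in both Setd2 libraries for event 1, against 0.0561 and 0.829 in Ctr and 0.0433 and 0.851 under Raver2 knockdown. Its event 2 was below 0.01 in both Setd2 libraries and at 0.850 and 0.339 in Ctr. The 2 libraries of Ctr and of Raver2 knockdown lay so far apart that neither event passed (adjusted p = 0.699 and 0.52 with Setd2 knockdown). Event 4 of 2210408F21Rik followed its event 1, at 0.0561 and 0.661 in Ctr, 0.0433 and 0.807 under Raver2 knockdown and 1 in both Setd2 libraries. Among its 5 events, 1600012H06Rik held event 2, which was at 0.426 and 0.229 in Ctr, 0.000296 and 0.658 with Raver2 hairpins, and 1 and 0.999 under Setd2 knockdown (adjusted p = 0.466 for Setd2). 3830406C13Rik event 4 was below 0.01 in Ctr and had means of 0.177 and 0.182 in the knockdowns (adjusted p = 0.712 and 0.699).

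In 4833439L19Rik, event 2 was below 0.01 and event 4 above 0.99 in all 6 libraries, whereas event 3 was between 0.270 and 0.440 in 5 libraries and at 0.0000382 in Setd2 library 2. Eldr (2810442I21Rik) event 3 lay between 0.646 and 0.860, while its event 2 ranged from 0.000336 to 1. D130020L05Rik, opposite the phosphatase subunit gene Ppp4r3a, had Ctr, Raver2 and Setd2 means of 0.558, 0.298 and 0.723 for event 3, with Setd2 libraries at 1 and 0.446 (adjusted p = 0.726 and 0.839 against Ctr). Its event 4 lay close to event 3, with means of 0.565, 0.324 and 0.717. Gm1966, an unprocessed pseudogene, had means of 0.619, 0.360 and 0.646 for event 1 (adjusted p = 0.78 and 1.0). Gm2042 listed 2 distinct events among 4, both between 0.289 and 0.705. None of the events of these 5 genes passed.

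Steady events of intermediate inclusion were few. Only 5 of the 198 events (2.53%) had a mean of 0.1 to 0.9 and a range under 0.1 over the 6 libraries, against 386 of 4460 (8.65%) in the other genes. Selenoh (2700094K13Rik) had the smallest SD over the 6 libraries (0.0241), with fractions from 0.768 to 0.843 and group means of 0.799, 0.806 and 0.799. Aopep (2010111I01Rik), an aminopeptidase gene whose transcript also holds the miR-23b, miR-27b and miR-24-1 genes, lay between 0.0912 and 0.156. 1700029F12Rik event 2 lay between 0.0928 and 0.159, Ldah (1110057K04Rik), of a lipid droplet hydrolase, between 0.687 and 0.773, and the fifth was Oip5os1, described above. The next by SD, Faap20 (2610002J02Rik), of a Fanconi anaemia core complex protein, lay between 0.135 and 0.238. Leaving Oip5os1 aside, the group means of these events differed by at most 0.0603, and none passed.

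At the other extreme, 32 events (16.2%) of 27 genes were below 0.01 in one library and above 0.99 in another, against 10.5% of events of other genes, and for 22 (11.1%, against 7.11%) this happened within a group. Fyb2 (1700024P16Rik) event 3 was at 1 and 0.000291 in Ctr and at 0.00122 and 1 under Setd2 knockdown. A230103J11Rik event 1 was above 0.99 in Ctr library 2 and below 0.01 in the other 5 libraries. 2410004P03Rik was at 1 in both Ctr libraries and 1 Raver2 library, at 0.0000823 in the other Raver2 library, and at 0.793 and 0.0000589 under Setd2 knockdown. 3632454L22Rik was at 0.0000726 in Setd2 library 2 and at 0.648 or more elsewhere, and 3830406C13Rik event 5 was at 0.9 and 1 in library 2 of Ctr and of Raver2 knockdown and below 0.01 in the other 4. In each of these 5 genes at least 1 group had its 2 libraries near opposite ends of the scale, and none of these events passed.

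In each library the unnamed and predicted genes held more fractions at an end of the scale (below 0.01 or above 0.99) than the other genes. The shares were 47.0% and 42.9% in Ctr, 40.4% and 36.4% with Raver2 hairpins, and 48.0% and 50.5% under Setd2 knockdown. For the other genes they were 33.9% and 32.0%, 34.0% and 32.7%, and 35.1% and 38.2%. The difference was 9.86 ± 3.91 percentage points (mean ± SD over 6 libraries) and positive in 6 of 6 (exact two-sided sign-flip permutation test, p = 0.03125, the smallest that 6 libraries allow; adjusted over 8 values, 0.125). The mean fraction differed by -0.0526 ± 0.0185 (unnamed and predicted minus other genes) and was lower in 6 of 6 libraries (exact sign-flip permutation test, p = 0.03125, adjusted 0.125). These tests cover the spread between libraries, not between genes. For both measures, the exact permutation p between groups was 0.333 to 1.0, where 0.333 is the smallest that 2 libraries against 2 allow.

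Noncoding members were at an end more often than coding members in every library. The 73 events of long noncoding RNAs had 64.4% and 48.0% of fractions at an end in Ctr, 50.7% and 45.2% with Raver2 hairpins, and 61.6% and 58.9% under Setd2 knockdown. The 110 events of coding members had 38.2% and 42.7%, 36.4% and 31.8%, and 40.0% and 45.5%. Coding members were above the other genes in 5 of 6 libraries and below them in Raver2 library 2. These 110 events include the 15 of Gm3286, which hold only 5 distinct sets of values, none at an end in Raver2 library 2. Among genes with 1 event, the coding share in Raver2 library 2 was 46.5%, against 31.5% of other genes. In Setd2 library 1 it was 30.2%, against 33.6%. In 21 events all 6 libraries were below 0.01 (10.6%, against 7.78% of other events), and in 6 all were above 0.99 (3.03%, against 2.56%). Inclusion below 0.01 throughout was listed for Lockd (1190002F15Rik) and Lncenc1 (Gm2373), for example, both long noncoding RNAs chosen here after their values were seen. Only 51 events (25.8%) had no library at an end, against 43.7% of other events.

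**Figure D3:**
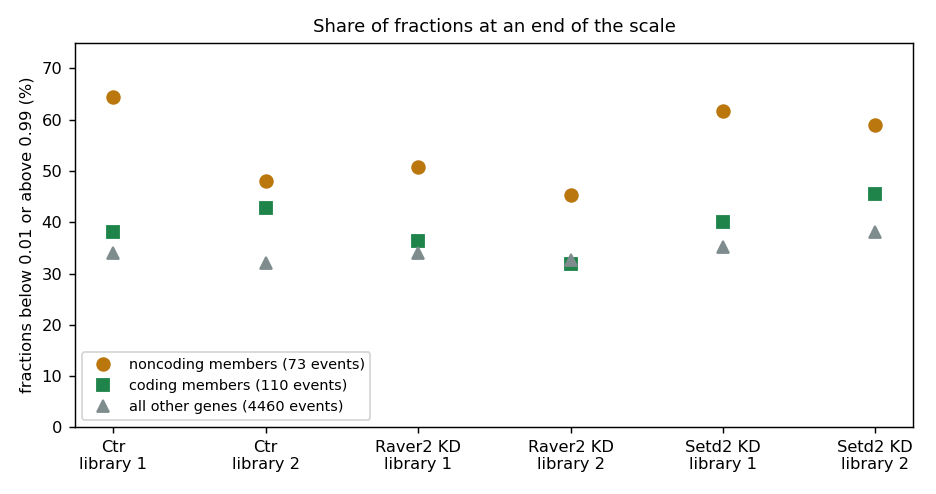
Share of inclusion fractions below 0.01 or above 0.99 (vertical axis, percent of events) in each of the 6 libraries, for noncoding members (long noncoding RNAs), coding members and all other genes. Noncoding members lie between 45.2% and 64.4%, above both other classes in every library, and all other genes between 32.0% and 38.2%.

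The 2 libraries of a group also differed more often in these genes. A gap over 0.1 was found in 71 events (35.9%) in Ctr, 64 (32.3%) in Raver2 knockdown and 70 (35.4%) in Setd2 knockdown, against 27.3%, 22.5% and 25.1% of other events. At a gap over 0.9 the shares were 6.06%, 4.55% and 3.54%, against 3.48%, 3.43% and 3.79%, so that the excess was present in Ctr and Raver2 knockdown but not in Setd2 knockdown. Repeated events are counted each time in these shares. Among the 12 Ctr events with such a gap, Gm3286 events 4, 9 and 14 hold the same values, as do A230103J11Rik events 1 and 2. With 1 value per group these shares are a description, with no test. The read depth behind each fraction was unknown, and its part in the shares at the ends of the scale and in the gaps was not tested.

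**Figure D4:**
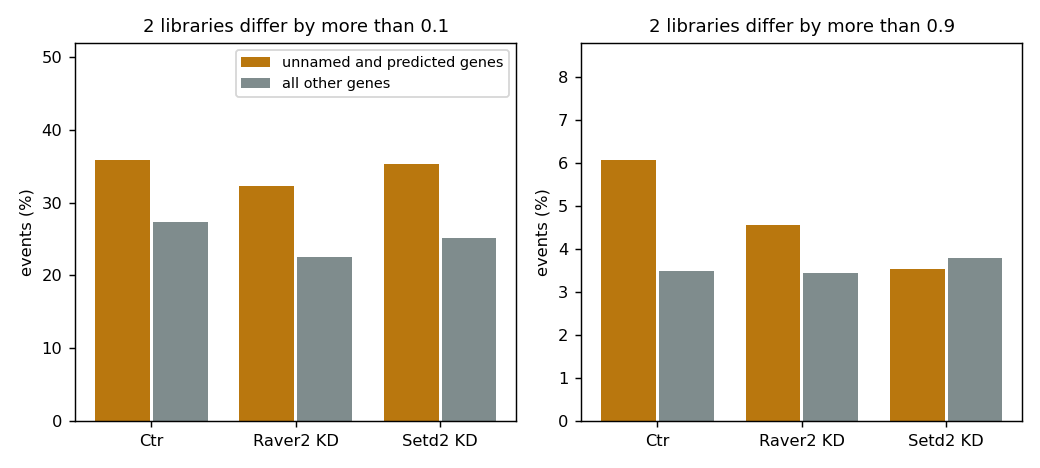
Share of events (vertical axis, percent) whose 2 libraries of a group differed by more than 0.1 (left panel) or more than 0.9 (right panel), for unnamed and predicted genes and for all other genes. At 0.1 the unnamed and predicted genes are higher in all 3 groups, and at 0.9 they are higher in Ctr and Raver2 knockdown only. Repeated events are counted each time.

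Events per gene differed too. Of the 125 genes, 94 (75.2%) had a single event, against 61.8% of the other genes, and the most events in a gene were 15 (Gm3286) against 12. Repeats of an earlier event of the same gene made up 20 of 198 events (10.1%), against 3.16% of other events, and 10 of the 20 came from Gm3286. Complements, whose fractions sum to 1 within 0.001, were 9 (4.55%), against 5.07%. The excess of fractions at an end was larger, not smaller, among genes with 1 event, at 18.9 percentage points.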

How the data were processed

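RNA of sorted, lentivirus-infected mouse mTECs was amplified with a SMART-seq v4 kit and made into libraries with a Nextera XT kit, per the labels' protocols, in 6 libraries of 3 groups. Each value deposited by the authors is an inclusion fraction from 0 to 1 per splicing event and gene symbol. The tools named, with no role or order, are Trimmomatic 0.39, TopHat2 and Cufflinks on build mm10, per the submitters' processing notes. The formula behind the inclusion fraction, the choice of events and any coverage minimum are not stated in the sources used here. Without read counts, depth stays unknown and counting error could not be computed.

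Events were matched between libraries by gene and by order within the gene, which assumes the same order in every library; 2685 genes with equal event numbers in all 6 libraries were kept. Fractions of all 4658 events were fitted with limma 3.58.1 in R 4.3.3 (a mean per group, 6 libraries, variance trend, two-sided contrasts), with Benjamini-Hochberg adjustment over all events and a threshold of 0.05. The 3 groups shared 1 estimate of the spread. The fit of Raver2 knockdown against Ctr was tested on simulated data. Only events of intermediate mean inclusion were changed there, so changes in other events were not covered. Shares per library were compared by exact permutation over libraries. Tables were handled in Python 3.11.15 with pandas 2.3.3. Gene types, exons and positions are from GENCODE M21 and present symbols from RefSeq (GRCm38.p6).

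Named genes were those with a significant event, the 8 higher and 8 lower events per comparison by moderated t (1 per gene), genes with at least 4 events, all GenBank-style clones, and the 6 events each with the smallest SD (mean 0.1 to 0.9) and the largest gap within a group. The members, lists and rules were chosen with earlier results of these data known. Alternatives were the logit scale (offset 0.01), no variance trend, only the 4 libraries compared, events with no library at an end of the scale (mid-range), repeats left out, genes with 1 event, each library left out, a replicate block, ends at 0.05 and 0.95, and a gap of 0.2.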

Additional observations from a re-analysis of the deposited data

Results flagged for a closer look

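The effects of the 2 knockdowns differed from each other in 3 unnamed or predicted genes, by the test of the difference itself (limma, Raver2 minus Setd2 knockdown). The Ctr libraries cancel in the difference but still enter the shared estimate of the spread, and so the p-values. For 4931409K22Rik (Iqca1l) events 1 and 2, which hold the same values, the difference was -0.99182 (adjusted p = 0.00932), with Setd2 knockdown at full inclusion. For A730082K24Rik it was 0.50392 (adjusted p = 0.00294), with an event listed above 0 in Raver2 knockdown only. For C87499 (Pramel32) it was 0.99953 (adjusted p = 0.0132), with the knockdowns at opposite ends of the scale and Ctr between them. Each difference was present in both libraries of each group. With 2 libraries a group, no sample could be tested as standing apart from its group.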

How the results depend on the processing

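No named event changed direction in any setting, but the balance of higher to lower calls did. Over all genes it was 47 to 66 for Raver2 knockdown against Ctr and 91 to 74 without Raver2 library 1, 41 to 63 for Setd2 knockdown against Ctr and 79 to 57 without Setd2 library 2, and 19 to 15 between the knockdowns and 40 to 66 without Setd2 library 2. Where a library is left out, its group has 1, assumed to vary like the other groups, so an event whose spread lay in that group can pass for that reason alone. For the genes named, 134 of 185 tests of significant events under an alternative stayed past the threshold and 51 did not; of 400 tests of events that had not passed, 22 did.

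Counts of significant events moved with the setting (all genes, then unnamed and predicted genes). For Raver2 knockdown against Ctr (113 and 7), only the 4 libraries compared gave 75 and 7, mid-range events 10 and 0, genes with 1 event 38 and 3, and leaving out a library 74 (without Setd2 library 2) to 291 (without Ctr library 1) and 4 (without Raver2 library 2) to 16 (without Ctr library 1). For Setd2 knockdown against Ctr (104 and 7), only the 4 libraries gave 0 and 0 (554 and 27 at an unadjusted limma p under 0.05), mid-range events 6 and 0, genes with 1 event 37 and 2, repeats left out 91 and 4, and leaving out a library 48 (without Raver2 library 2) to 279 (without Ctr library 1) and 3 (without either Raver2 library) to 20 (without Ctr library 1). For Raver2 against Setd2 knockdown (34 and 4), the logit scale gave 46 and 7 (5 higher and 2 lower of the 7), mid-range events 0 and 0, genes with 1 event 12 and 2, and leaving out a library 46 (without Ctr library 1) to 119 (without Raver2 library 1) and 4 to 8 (without Raver2 library 1 or Setd2 library 2). With the logit scale, Setd2 knockdown against Ctr gave 124 and 10 (4 higher and 6 lower of the 10). Mid-range counts of 0 had 8, 9 and 2 unnamed and predicted events, and 107 of all events between the knockdowns, at an unadjusted p under 0.05. The cause was not tested, beyond the fewer events or libraries that some settings hold.

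With a replicate block for hairpin number, Raver2 against Setd2 knockdown gave 0 and 0 (265 and 17 at an unadjusted limma p under 0.05; smallest adjusted p for these genes 0.504). Deviations of same-numbered libraries correlated at 0.0146 across all events and at 0.0356 across mid-range events. The labels do not say whether same-numbered libraries came from the same animal or culture, and this was not tested. At a gap over 0.2 between libraries, the excess in unnamed and predicted genes was 9.46 points in Ctr (8.53 at 0.1) and 9.07 in Setd2 knockdown (10.3 at 0.1). Depth is unknown and limits every fraction near 0 or 1.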

Other observations

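A further 42 symbols of these kinds were listed in some libraries but not all, and entered no comparison. Of them, 6 were listed in a single library, 5 in 2, 5 in 3, 10 in 4 and 16 in 5. Both Ctr libraries listed 21, both Raver2 knockdown libraries 18 and both Setd2 knockdown libraries 11. No Ctr library listed 5 of them, no Raver2 knockdown library 8 and no Setd2 knockdown library 12. 6430710C18Rik and C430002N11Rik were listed in all 4 knockdown libraries and in no Ctr library, and 1700034G24Rik in both Ctr libraries and no other; these 3 were chosen after their listing was seen. Whether an event missing from a library was not included, not expressed or not covered is unknown, and no test was made. In all, 141 to 158 symbols of these kinds were listed per library, the fewest in Setd2 knockdown library 2.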
